A study of Homo sapiens with 20 samples.

Results

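EFEMP1, EHD3, GJA1, IKZF3, TNMD and S100A6 are 6 protein-coding genes picked by name out of 53153 genes measured in silencer-excised K562 cells and 57736 genes measured in drug-treated K562 cells. They were picked from their RNA levels after silencer excision, so those levels are given here as a description with no test, and only the drug libraries and other genes are tested. The 6 were listed together as genes gained by excised cells. The estimated counts bear this out for EFEMP1, EHD3, GJA1, IKZF3 and TNMD and go against it for S100A6, which was lower in all 6 excised libraries than in both control libraries.

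K562 is a human erythroleukemia cell line. The excision arm has cells with both silencers removed by CRISPR (DKO), with silencer 1 removed (S1KO), with silencer 2 removed (S2KO), and cells given an empty vector (EV). In the drug arm, K562 cells received 5 uM GSK343, an inhibitor of the histone methyltransferase EZH2, or 100 uM X5050, an inhibitor of the repressor REST, for 72 h. Other cells received both drugs at these doses for 8, 24 or 72 h, and the control cells received DMSO for 72 h. All 10 groups have 2 libraries of stranded total RNA with ribosomal RNA removed, 20 in all. The 8 h and 24 h libraries have no vehicle control of their own time, so each was set against the 72 h DMSO libraries, and time in culture cannot be told apart from the drugs there. The labels do not say whether an excised line is 1 clone or a pool, so the removal of a silencer and the history of a line cannot be told apart.

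A silencer is a stretch of DNA that keeps genes low. EZH2 is the catalytic subunit of Polycomb repressive complex 2, which marks silent genes with trimethylation of histone H3 lysine 27, and REST keeps neuronal genes off outside the nervous system. The 6 genes belong to different families. EFEMP1 encodes fibulin-3, a secreted glycoprotein of the extracellular matrix. EHD3 encodes an ATPase of the EHD family that acts in endosomal recycling. GJA1 encodes connexin 43, the most widely expressed gap junction channel protein. IKZF3 encodes Aiolos, an Ikaros family zinc finger transcription factor of lymphocytes. TNMD encodes tenomodulin, a membrane protein of tendon and ligament cells with a BRICHOS domain. S100A6 encodes calcyclin, a small calcium-binding protein that binds annexins.

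The genes lie apart in the genome. EFEMP1 and EHD3 lie on chromosome 2, GJA1 on chromosome 6, IKZF3 on chromosome 17, TNMD on chromosome X and S100A6 on chromosome 1. Of the 6, 4 had a 250-base window before the start in the RefSeq promoter table (GRCh38.p14), namely EHD3, GJA1, TNMD and S100A6. Printed are 2 of these windows, which differ in base composition. For EHD3 (plus strand, chr2:31233902-31234151) capitals mark the CG dinucleotides, and for GJA1 (plus strand, chr6:121435396-121435645) they mark a match to the AP-1 motif TGANTCA.
EHD3: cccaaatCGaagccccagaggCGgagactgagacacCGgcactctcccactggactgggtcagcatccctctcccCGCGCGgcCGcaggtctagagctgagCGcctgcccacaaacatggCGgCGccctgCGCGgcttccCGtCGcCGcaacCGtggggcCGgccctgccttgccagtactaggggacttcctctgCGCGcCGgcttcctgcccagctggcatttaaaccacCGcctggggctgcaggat
GJA1: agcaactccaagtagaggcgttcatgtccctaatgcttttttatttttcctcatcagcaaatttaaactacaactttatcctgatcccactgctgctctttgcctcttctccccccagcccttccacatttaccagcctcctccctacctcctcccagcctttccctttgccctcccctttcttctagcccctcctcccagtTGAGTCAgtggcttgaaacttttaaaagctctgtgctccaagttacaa
The EHD3 window holds 21 CG dinucleotides and the GJA1 window 1, against a median of 11 over all 35116 promoter windows, with quartiles of 3 and 23. The TNMD window also holds 1 and the S100A6 window 24, so the windows differ in CG content. The AP-1 match of GJA1 lies 48 to 42 bases before its start, and 6.6% of all windows hold this motif on either strand. The GATA motif letters AGATAA and TGATAA, found in 9.2% and 6.7% of windows on either strand, are in none of the 4 windows. The start in the table is that of GJA1-201, the only GJA1 transcript that the kallisto tables list. For EHD3 the start in the table was not found in EHD3-201, the only EHD3 transcript listed. The EHD3 window may therefore not be the promoter of the RNA measured here. For TNMD and S100A6 the start lies inside the main expressed transcript, and those windows are not printed.

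In the excision arm 5 of the 6 genes were detected in both DKO libraries, TNMD at a low level, and had almost no reads in EV cells. Values are CPM, estimated counts scaled by library size with TMM factors. EFEMP1 had 39.6 and 38.0 CPM in the DKO libraries, 40.2 and 47.7 CPM in the S1KO libraries and 1.56 and 1.93 CPM in the S2KO libraries, against 0.0506 and 0.0717 CPM in the EV libraries. It was therefore near the same level with silencer 1 or both silencers gone, and far lower, though still above EV, with silencer 2 gone. In CPM DKO was 631 times EV (95% counting interval 343 to 1320), S1KO 714 times EV (388 to 1490) and S2KO 28.4 times EV (15.2 to 59.8). These intervals are exact binomial and cover counting error only, and the EV libraries held 4 and 6 EFEMP1 counts.

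EHD3 had 9.96 and 10.1 CPM in the DKO libraries, 3.40 and 3.68 CPM in the S1KO libraries and 0.348 and 0.526 CPM in the S2KO libraries, and no count in either EV library. A count of 0 allows up to 0.0370 and 0.0342 CPM there, at 3 counts per library. All excised libraries were above that limit, in the order DKO, S1KO, S2KO. Against a floor of 3 counts over the EV group, EHD3 was at least 544-fold higher in DKO, at least 192-fold higher in S1KO and at least 23.6-fold higher in S2KO cells.

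IKZF3 had 10.7 and 10.5 CPM in the DKO libraries, 3.25 and 2.30 CPM in the S1KO libraries and 6.0 and 5.36 CPM in the S2KO libraries, against 0.0379 and 0.0119 CPM in the EV libraries. No group overlapped another. Unlike EFEMP1 and EHD3, this lymphoid transcription factor gene was higher in S2KO than in S1KO cells. The DKO level was 431 times that of EV (168 to 1580), the S1KO level 113 times (44.0 to 417) and the S2KO level 231 times (90.0 to 851), with 3 and 1 counts in the EV libraries.

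GJA1 had 6.02 and 5.44 CPM in the DKO libraries, 0.359 and 0.181 CPM in the S1KO libraries and 1.06 and 0.289 CPM in the S2KO libraries, against 0.0253 and 0 CPM in the EV libraries. The DKO libraries stood apart from all others, while the S1KO and S2KO libraries overlapped. GJA1 in DKO cells was 21.1 times its S1KO level (15.9 to 28.5) and 8.47 times its S2KO level (6.88 to 10.5). Set against EV, which held 2 counts in all, the ratio was 466 (129 to 3860) in DKO, 22.1 (5.82 to 187) in S1KO and 55.0 (14.9 to 461) in S2KO cells.

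TNMD was the least abundant of the 5, with 0.445 and 0.388 CPM in the DKO libraries, 0.0615 and 0.117 CPM in the S1KO libraries and 0.193 and 0.368 CPM in the S2KO libraries, and no count in either EV library. These levels rest on 26 and 24 counts in DKO, 6 and 11 counts in S1KO and 15 and 28 counts in S2KO libraries. The order was DKO, S2KO, S1KO, as for IKZF3. The ratio of DKO to S2KO was 1.49 with an interval of 0.969 to 2.29, so these neighbours in the order are within counting error. TNMD was at least 22.5-fold higher in DKO, at least 4.81-fold higher in S1KO and at least 15.2-fold higher in S2KO cells than the floor in EV.

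S100A6 moved the other way. It had 0.240 and 0.162 CPM in the DKO libraries, 0.0717 and 0.0532 CPM in the S1KO libraries and 0.0129 and 0.0263 CPM in the S2KO libraries, against 13.5 and 5.31 CPM in the EV libraries. All 6 excised libraries lay below both EV libraries, which themselves differed 2.54-fold. S100A6 was 46.6 times lower in DKO (31.2 to 73.0), 149 times lower in S1KO (84.8 to 288) and 477 times lower in S2KO cells (163 to 2310) than in EV cells. The S2KO value rests on 3 counts in all, against 1070 and 444 counts in the EV libraries.

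**Figure D1:**
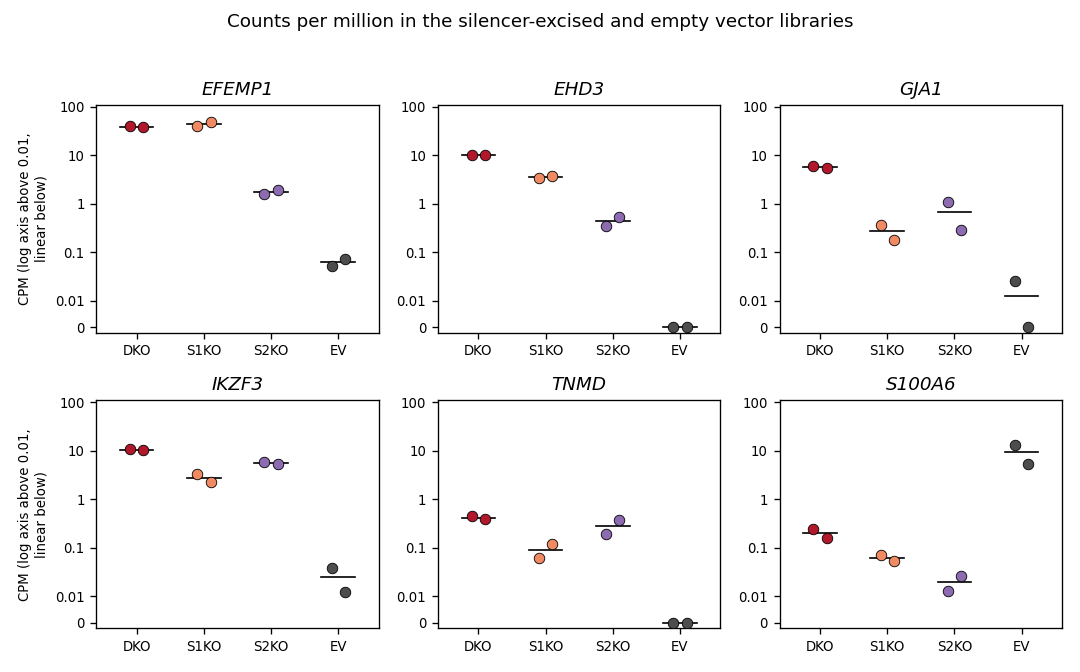
Estimated counts in CPM of the 6 genes in each excision arm library, with groups on the x axis and CPM on the y axis (log axis above 0.01, linear below). Each point is 1 library and each bar the mean of 2. EFEMP1, EHD3, GJA1, IKZF3 and TNMD sit at or near 0 in EV, while S100A6 sits at 13.5 and 5.31 CPM in EV and at or below 0.240 CPM in all excised libraries.

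In the fit across all 21286 tested genes, 5 of the 6 genes were called higher in DKO cells, against a background of 5.41% of genes, and S100A6 was called lower, against 3.35%. A call is an adjusted p under 0.05 in edgeR's quasi-likelihood test. In S1KO cells 3 of the 6 were called higher (EFEMP1, EHD3 and IKZF3; background 2.44%) and S100A6 lower (1.23%). In S2KO cells 4 were called higher (EFEMP1, EHD3, IKZF3 and TNMD; background 1.45%) and S100A6 lower (0.554%). GJA1 was not called in S1KO or S2KO cells, nor TNMD in S1KO cells. Since these comparisons chose the genes, the counts support nothing by themselves. All 6 passed the filter on low counts, 5 of them through the excised groups where they are high.

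Levels of different genes were compared per length, in TPM. EFEMP1 was the most abundant of the 6 in DKO cells, with 15.6 and 16.1 TPM in the 2 libraries. IKZF3 followed with 3.41 and 3.49 TPM, then EHD3 with 1.55 and 1.64 TPM and GJA1 with 1.47 and 1.38 TPM. TNMD had 0.513 and 0.383 TPM and S100A6 0.360 and 0.256 TPM. In EV cells S100A6 led instead, with 18.5 and 6.83 TPM, and no other of the 6 passed 0.0410 TPM in an EV library. In bulk RNA, more cells that express a gene and more RNA per cell cannot be told apart.

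Where a gene had several listed transcripts, most of the gained RNA was assigned to protein-coding ones. EFEMP1-201 held 62.0% of EFEMP1 estimated counts in DKO, 57.5% in S1KO and 63.1% in S2KO cells, and EFEMP1-202 held 35.4%, 40.2% and 33.8% in the same order. The mix of these transcripts was thus much alike in the 3 excisions, although the gene's level differed up to 25.2-fold between S1KO and S2KO. IKZF3-203 held 96.2% of IKZF3 counts in DKO, 98.5% in S1KO and 92.8% in S2KO cells. EHD3 and GJA1 have 1 listed transcript each, so no mix could be measured for them. TNMD-201, the coding transcript, held 69.6% in DKO, 94.1% in S1KO and 62.3% in S2KO cells, with the rest in a processed transcript, over few counts. In EV cells S100A6-201 held 89.7% of S100A6 counts.

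The nearest 2 protein-coding genes on each side of each of the 6 show, where they were tested, whether a change reached beyond the gene. They were taken by gene order with no limit on distance, and distances were not measured. Of 24 neighbours 17 were tested, and these were not used to choose the genes. In DKO cells 2 were called, both higher, both next to TNMD. TSPAN6, a tetraspanin gene and the next gene after TNMD, had 15.8 and 15.5 CPM in the DKO libraries, 2.75 and 2.71 CPM in the S1KO libraries and 0.669 and 0.854 CPM in the S2KO libraries, against 0.455 and 0.669 CPM in the EV libraries. It rose in DKO (log2 fold change 4.79 ± 0.31 SE, edgeR adjusted p = 0.000446) and in S1KO cells (2.28 ± 0.28, edgeR adjusted p = 0.00862), and was not called in S2KO cells (0.44 ± 0.28, edgeR adjusted p = 0.689). The S1KO call was lost with only S1KO and EV in the fit (edgeR adjusted p = 0.0780), without S1KO replicate 1 (0.0545) and without S1KO replicate 2 (0.0548). SRPX2, the gene after TSPAN6, had 0.685 and 0.388 CPM in the DKO libraries, against 0 and 0.0239 CPM in the EV libraries. It rose in DKO cells (5.28 ± 0.90, edgeR adjusted p = 0.0160), a call lost without DKO replicate 1 (0.134) or 2 (0.0708). SRPX2 was not called in S1KO (1.65 ± 1.03, edgeR adjusted p = 0.549) or S2KO cells (2.12 ± 1.01, edgeR adjusted p = 0.522). It thus passed the filter on low counts through the DKO group, where it is high. The rise of SRPX2 in the count of 2 is therefore no support. TNMD, at 0.445 and 0.388 CPM in the DKO libraries, was far below TSPAN6.

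**Figure D2:**
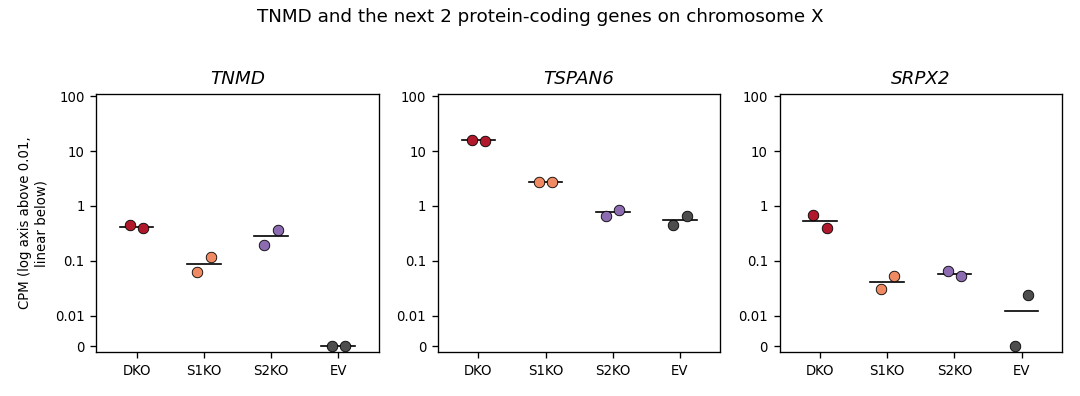
Estimated counts in CPM of TNMD, TSPAN6 and SRPX2 in each excision arm library, with groups on the x axis and CPM on the y axis (log axis above 0.01, linear below). Each point is 1 library and each bar the mean of 2. TSPAN6 sits at 15.8 and 15.5 CPM in DKO, against 0.455 and 0.669 CPM in EV, and TNMD has no count in EV.

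No tested neighbour of EFEMP1, EHD3, GJA1, IKZF3 or S100A6 was called in any excision. Around EHD3 only CAPN14 (0.54 ± 0.84 in DKO cells, edgeR adjusted p = 0.742) and XDH (-0.17 ± 0.55, edgeR adjusted p = 0.884) were tested, both at low counts. Around EFEMP1, PNPT1 had a log2 fold change of 0.38 ± 0.41 in DKO cells (edgeR adjusted p = 0.621) and CCDC85A one of 1.19 ± 0.48 (edgeR adjusted p = 0.192). Around GJA1, TBC1D32 had -0.99 ± 0.28 (edgeR adjusted p = 0.0780) and HSF2 0.01 ± 0.14 (edgeR adjusted p = 0.968). Around IKZF3, GRB7 had 1.32 ± 0.50 (edgeR adjusted p = 0.166) and ZPBP2 -0.08 ± 0.50 (edgeR adjusted p = 0.946). S100A4, which lies near S100A6 in the S100 gene cluster, was its only tested neighbour and had 0.61 ± 0.79 (edgeR adjusted p = 0.685).

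Calls among relatives of the 6 genes in DKO cells are set against 5.41% of all genes called higher and 3.35% called lower. All gene lists here and below were chosen with earlier results of these data known. Without the gene itself, the median log2 fold change in DKO cells was -0.13 over 5 tested fibulins and -0.59 over 4 tested Ikaros family genes, against 0.01 over all tested genes, and neither list held a call in edgeR. Of 3 EHD genes, EHD2 fell in DKO cells (-1.62 ± 0.32, edgeR adjusted p = 0.0267). Of 6 tested connexins, GJA3 (4.17 ± 0.70, edgeR adjusted p = 0.0145) and GJC1 (1.76 ± 0.31, edgeR adjusted p = 0.0179) rose. Of 10 tested S100 genes, S100A10 (3.71 ± 0.75, edgeR adjusted p = 0.0297) and S100A16 (2.55 ± 0.52, edgeR adjusted p = 0.0304) rose while S100A6 was far lower. Each of these family calls was lost on leaving out any 1 of at least 3 of the 4 compared libraries. GJA3 averaged 0.249 CPM in DKO and 0.0123 CPM in EV cells, and S100A10 1.08 and 0.0815 CPM. Both passed the filter on low counts through excised groups where they are high, so their rises in these counts are no support. Of 4 tested BRICHOS genes, ITM2A fell (-1.43 ± 0.15, edgeR adjusted p = 0.00292), and this call held under all its alternatives.

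Of 7 tested tendon genes 2 rose in DKO cells (5.41% of all genes) and none fell (3.35%), with a median log2 fold change of 1.99 against 0.01 over all tested genes. COL1A2, a chain of type I collagen, averaged 114 CPM in DKO cells and 0.388 CPM in EV cells (8.20 ± 0.33, edgeR adjusted p = 0.000161). It also rose in S1KO cells (4.20 ± 0.29, edgeR adjusted p = 0.000954). COL1A1, the other chain, rose in DKO cells (2.61 ± 0.38, edgeR adjusted p = 0.00946), a call lost without DKO replicate 1 (0.0732) and with length-scaled TPM counts (0.195). Of 11 tested elastic fibre partners, with a median log2 fold change of -0.18, LTBP1 and ECM1 rose in DKO cells. ECM1 had 2.48 ± 0.46 (edgeR adjusted p = 0.0215), a call lost without DKO replicate 1 (0.133) or 2 (0.0734) or EV replicate 2 (0.0899). LTBP1 rose in DKO (1.70 ± 0.23, edgeR adjusted p = 0.00752) and in S1KO cells (1.89 ± 0.23, edgeR adjusted p = 0.00884). The DKO call of LTBP1 was lost without DKO replicate 2 (0.0669), and the S1KO call without S1KO replicate 1 (0.0613) or EV replicate 2 (0.0526).

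Markers of other cell types were summed beside these genes. The 12 fibroblast and tendon markers, COL1A2 among them, summed to 111 to 132 CPM in DKO, 9.46 to 10.7 CPM in S1KO and 3.53 to 4.05 CPM in S2KO libraries, against 2.86 to 3.44 CPM in EV libraries. COL1A2 alone averaged 114 CPM in DKO cells, so most of that sum was 1 gene, and 4 of the 12 markers reached 1 CPM in DKO and 1 in EV. LUM and MKX were at 0 in DKO and in EV. The 12 lymphoid markers summed to 14.9 to 17.2 CPM in DKO, 14.7 to 17.1 CPM in S1KO and 9.62 to 14 CPM in S2KO libraries, against 8.58 to 19.6 CPM in EV libraries, with the B cell marker MS4A1 at 0 in all 4 groups. Over the 7 that were tested, the median log2 fold change was 1.75 in DKO, 0 in S1KO and 1.52 in S2KO cells. In DKO cells 1 of these 7 was called higher and none lower, against 5.41% and 3.35% of all genes. All 12 erythroid identity genes of K562 were at or above 1 CPM in all 4 groups. They summed to 17300 to 20200 CPM in DKO, 9460 to 16900 CPM in S1KO, 6150 to 13000 CPM in S2KO and 2830 to 6450 CPM in EV libraries. HBE1 alone averaged 6330 CPM in DKO and 133 CPM in EV cells. In DKO cells 3 of the 12 were called higher and none lower, against 5.41% and 3.35% of all genes. The part of these markers in the levels of EFEMP1, TNMD and IKZF3 was not tested. FGF18, a growth factor gene, had 16 and 16 counts in the DKO, 6 and 1 in the S1KO and 9 and 2 in the S2KO libraries, against 9 and 0 in the EV libraries.

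Some other genes had a pattern over the 8 excision libraries much like that of the 6, measured as Pearson's r of log2 CPM over coding genes that averaged 1 CPM or more. ZDHHC23 was most like EFEMP1 (r = 0.994), with 25.3 and 23.6 CPM in DKO, 30.3 and 24.2 CPM in S1KO and 5.73 and 5.11 CPM in S2KO libraries, against 0.848 and 0.729 CPM in EV libraries. CTDSPL came next (r = 0.991). Since r takes no account of size, some of these genes changed little. MED14 (r = 0.994) and CD109 (r = 0.993) were most like EHD3. MED14 had 73.5 and 73.4 CPM in the DKO libraries, against 50.9 and 53.1 CPM in the EV libraries, while CD109 had 11.8 and 8.61 CPM in the DKO libraries, against 0.253 and 0.179 CPM in the EV libraries. DCAF4L2 (0.989) and TPGS1 (0.988) were most like IKZF3, ZNF616 (0.981) and ACTL8 (0.976) most like GJA1, and EFCAB10 (0.991) and MBNL3 (0.982) most like TNMD. IL18RAP (0.977) and CTAG2 (0.973) were most like S100A6, and CTAG2 had 1.42 and 1.49 CPM in the DKO libraries, against 18.2 and 13.8 CPM in the EV libraries. These are descriptions over 8 libraries that share groups.

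The choice of genes did not use the drug libraries, so the response to GSK343 and X5050 was tested, over 19224 genes. TNMD was not among the tested genes: it had 0 counts in 10 of 12 drug libraries, 2 counts in GSK343 replicate 2 and 1 in DMSO replicate 2. A count of 0 allows up to 0.0786 to 0.131 CPM in a library. The other 5 genes were tested. With GSK343 1 of the 5 was called higher, against 9.12% of all genes called higher and 3.31% called lower. With X5050 1 was called higher, against 5.34%, and 1 lower, against 7.23%. With both drugs for 72 h 1 was called higher, against 19.2%, and 1 lower, against 17.3%.

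EHD3 rose with the EZH2 inhibitor. It had 4.22 and 5.22 CPM with GSK343, 0.441 and 0.768 CPM with X5050 and 0.701 and 0.839 CPM with both drugs for 72 h, against 0.909 and 0.560 CPM with DMSO. The GSK343 libraries stood above all others, and the other 3 groups overlapped. EHD3 rose with GSK343 (log2 fold change 2.68 ± 0.36, edgeR adjusted p = 0.000152) and this call held under all 11 alternatives. With both drugs at 72 h it was lower than with GSK343 alone (-2.60 ± 0.35, edgeR adjusted p = 3.36e-05), and not called against DMSO (0.08 ± 0.40, edgeR adjusted p = 0.907).

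S100A6 rose with the REST inhibitor and with the combination. It had 1.77 and 2.16 CPM with GSK343, 4.24 and 3.66 CPM with X5050 and 9.60 and 8.43 CPM with both drugs for 72 h, against 1.69 and 1.84 CPM with DMSO. The combination libraries were the highest, the X5050 libraries came next, and the GSK343 and DMSO libraries overlapped. S100A6 rose with X5050 (1.16 ± 0.24, edgeR adjusted p = 0.00593) and with both drugs (2.35 ± 0.24, edgeR adjusted p = 2.04e-06), and was not called with GSK343 (0.16 ± 0.25, edgeR adjusted p = 0.753). It was higher with both drugs than with GSK343 alone (2.19 ± 0.23, edgeR adjusted p = 3.45e-06) and than with X5050 alone (1.19 ± 0.22, edgeR adjusted p = 0.000770). The X5050 call was lost with only X5050 and DMSO in the fit (0.0855) and without X5050 replicate 1 (0.0532).

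EFEMP1, the most abundant of the listed genes in DKO cells, was not called with GSK343 and fell with X5050. It had 1.24 and 1.76 CPM with GSK343, 0.339 and 0.475 CPM with X5050 and 0.394 and 0.420 CPM with both drugs for 72 h, against 0.991 and 1.44 CPM with DMSO. The X5050 and combination libraries lay below both DMSO libraries, and the GSK343 libraries overlapped DMSO. The change was -1.57 ± 0.40 with X5050 (edgeR adjusted p = 0.0185), -1.57 ± 0.41 with both drugs (edgeR adjusted p = 0.00716) and 0.30 ± 0.35 with GSK343 (edgeR adjusted p = 0.638). The X5050 call was lost with only X5050 and DMSO in the fit (0.116), without DMSO replicate 2 (0.104) and without X5050 replicate 1 (0.176). The combination call was lost without DMSO replicate 2 (0.0581) and without combination replicate 1 (0.0503). Against GSK343 alone EFEMP1 was lower with both drugs (-1.87 ± 0.40, edgeR adjusted p = 0.00161).

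IKZF3 had 2.48 and 2.25 CPM with GSK343, 0.746 and 0.914 CPM with X5050 and 1.01 and 1.22 CPM with both drugs for 72 h, against 1.53 and 1.56 CPM with DMSO. Both GSK343 libraries lay above DMSO and both X5050 libraries below, but neither difference was called (0.61 ± 0.29, edgeR adjusted p = 0.196, and -0.89 ± 0.32, edgeR adjusted p = 0.0796). IKZF3 was lower with both drugs than with GSK343 alone (-1.08 ± 0.30, edgeR adjusted p = 0.00981), a call lost without combination replicate 1 (0.0842) or GSK343 replicate 1 (0.0531).

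GJA1 stayed near the limit of detection in the drug arm. It had 0.460 and 0.432 CPM with GSK343, 0.237 and 0.293 CPM with X5050 and 0 and 0.114 CPM with both drugs for 72 h, against 0.124 and 0.0800 CPM with DMSO. The GSK343 and X5050 libraries lay above both DMSO libraries, but neither difference was called (2.09 ± 0.89, edgeR adjusted p = 0.147, and 1.34 ± 0.96, edgeR adjusted p = 0.407). GJA1 was lower with both drugs than with GSK343 alone (-2.79 ± 0.98, edgeR adjusted p = 0.0328), a call lost in DESeq2 (0.0594), without combination replicate 1 (0.205) and without GSK343 replicate 1 (0.0882) or 2 (0.0881). Thus 4 of the 5 tested genes were lower with both drugs than with GSK343 alone, against 20.5% of all genes, and S100A6 was higher, against 18.9%. GJA1 had 13 and 14 counts with GSK343 and 14 and 20 with both drugs at 24 h, but 0 to 9 counts in every other drug library, so it passed the filter on low counts through groups where it is high and its part in this count is no support. Set against X5050 alone S100A6 was the 1 gene called, higher, against 17.5% of all genes called higher and 12.8% called lower.

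**Figure D3:**
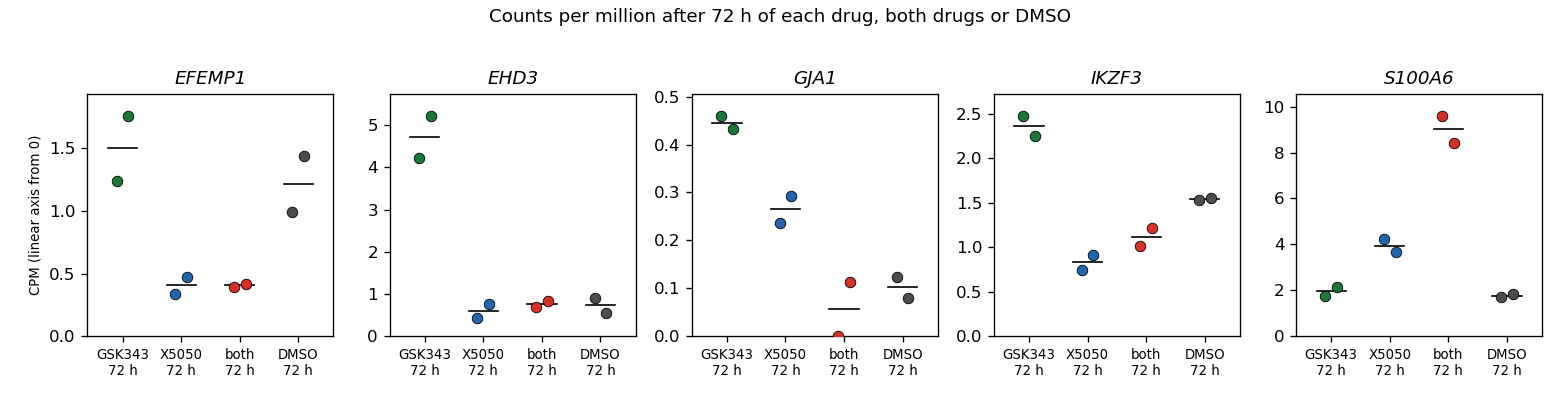
Counts in CPM of the 5 tested genes after 72 h of GSK343, X5050, both drugs or DMSO, with groups on the x axis and CPM on a linear y axis from 0, scaled per gene. Each point is 1 library and each bar the mean of 2. EHD3 sits at 4.22 and 5.22 CPM with GSK343, against 0.909 and 0.560 CPM with DMSO, and S100A6 at 9.60 and 8.43 CPM with both drugs, against 1.69 and 1.84 CPM with DMSO.

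The time course of both drugs separated the genes. S100A6 had 2.87 and 2.88 CPM at 8 h, 4.29 and 3.98 CPM at 24 h and 9.60 and 8.43 CPM at 72 h, so each time lay above the one before and above DMSO. Its log2 fold change against DMSO was 0.70 ± 0.24 at 8 h (edgeR adjusted p = 0.0287) and 1.22 ± 0.24 at 24 h (edgeR adjusted p = 0.000719). The 8 h call was lost without the low-count filter, with only the groups compared, and with any of the 4 compared libraries left out. The 24 h and 72 h calls held under all alternatives.

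EHD3 had 1.87 and 1.51 CPM at 8 h, 0.256 and 0.200 CPM at 24 h and 0.701 and 0.839 CPM at 72 h. It was above DMSO at 8 h (1.20 ± 0.37, edgeR adjusted p = 0.0144) and below it at 24 h (-1.66 ± 0.47, edgeR adjusted p = 0.00913), and overlapped DMSO at 72 h. The 8 h call was lost with only the groups compared (0.0549), without the 8 h replicate 1 (0.0833) and without DMSO replicate 2 (0.111). The 24 h call was lost without the 24 h replicate 2 (0.0720) and without DMSO replicate 1 (0.0911).

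EFEMP1 had 1.76 and 1.58 CPM at 8 h, 0.608 and 0.635 CPM at 24 h and 0.394 and 0.420 CPM at 72 h. It was above DMSO at 8 h without a call (0.45 ± 0.34, edgeR adjusted p = 0.309) and below it at 24 h, at the threshold (-0.96 ± 0.38, edgeR adjusted p = 0.0501). IKZF3 had 1.67 and 1.48 CPM at 8 h, 1.18 and 1.17 CPM at 24 h and 1.01 and 1.22 CPM at 72 h and was not called at any time. GJA1 had 0.264 and 0.0255 CPM at 8 h, 0.448 and 0.668 CPM at 24 h and 0 and 0.114 CPM at 72 h. It was higher than with DMSO at 24 h (2.41 ± 0.87, edgeR adjusted p = 0.0354), a call lost in DESeq2 (0.0726), with the GC trend removed (0.0639) and with any of the 4 compared libraries left out. At 8 h 2 of the 5 tested genes were called higher (EHD3 and S100A6; background 21.8%). At 24 h 2 were called higher (GJA1 and S100A6; 22.0%) and EHD3 lower (21.1%). Read against these backgrounds, such counts among 5 genes are no result about the 6 genes.

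**Figure D4:**
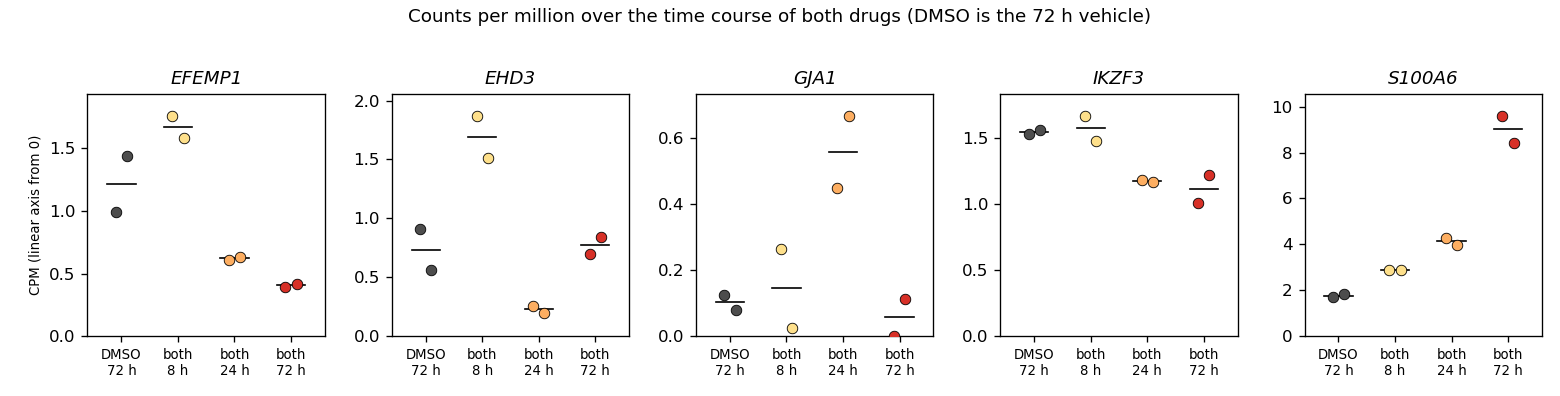
Counts in CPM of the 5 tested genes with DMSO for 72 h and with both drugs for 8, 24 and 72 h, with groups on the x axis and CPM on a linear y axis from 0, scaled per gene. Each point is 1 library and each bar the mean of 2. S100A6 is higher at each later time, up to 9.60 and 8.43 CPM at 72 h, and EHD3 is lowest at 24 h, with 0.256 and 0.200 CPM.

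Some relatives of the 6 genes were called with the drugs. With GSK343, where 9.12% of all genes were called higher and 3.31% lower, 2 of 5 tested fibulins rose, FBLN2 (2.68 ± 0.57, edgeR adjusted p = 0.00574) and FBLN1 (3.85 ± 0.89, edgeR adjusted p = 0.00987), and 2 of 5 tested connexins, GJC1 (1.73 ± 0.30, edgeR adjusted p = 0.00147) and GJA3 (3.08 ± 0.63, edgeR adjusted p = 0.00476). The FBLN2 call was lost without GSK343 replicate 2 (0.0722) and the FBLN1 call in DESeq2 (0.0518), without DMSO replicate 2 (0.0983) and without GSK343 replicate 2 (0.0804). FBLN2 averaged 1.19 CPM with GSK343 and 0.181 CPM with DMSO, FBLN1 0.643 and 0.0407 CPM, and GJA3 1.4 and 0.161 CPM. They thus passed the filter on low counts through groups where they are high, so their rises in these counts are no support. Among the elastic fibre partners TIMP3, a metalloproteinase inhibitor, averaged 33.0 CPM with GSK343 and 1.56 CPM with DMSO (4.40 ± 0.41, edgeR adjusted p = 2.34e-05). Of 7 tested tendon genes 5 rose and none fell with GSK343, among them COL14A1 (2.01 ± 0.20, edgeR adjusted p = 1.13e-05) and COL1A1 (1.98 ± 0.23, edgeR adjusted p = 3.59e-05). FMOD, another of the 5, averaged 2.33 CPM with GSK343 and 0.203 CPM with DMSO, so its rise is likewise no support. TSPAN6, the gene next to TNMD, had 0.850 and 1.17 CPM with GSK343, against 0.0826 and 0.200 CPM with DMSO (2.80 ± 0.69, edgeR adjusted p = 0.0150). That call was lost without DMSO replicate 1 (0.0575) and without GSK343 replicate 2 (0.125). Of 13 tested neighbours of the 6 genes 2 rose and 1 fell with GSK343. Besides TSPAN6 these were RPA4, 2 places before TNMD in gene order (3.02 ± 0.92, edgeR adjusted p = 0.0446), and HSF2, the next gene after GJA1 (-0.54 ± 0.16, edgeR adjusted p = 0.0325). RPA4 lost its call in 7 of 11 alternatives and HSF2 in 4. RPA4 had 13 and 19 counts with GSK343 and 0 to 2 in every other drug library. TSPAN6 had 24 and 38 counts with GSK343, 20 and 24 with both drugs at 8 h and 1 to 8 elsewhere. Both thus passed the filter on low counts through groups where they are high, so the 2 rises in this count are no support.

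With both drugs for 72 h, where 19.2% of all genes were called higher and 17.3% lower, 5 of 8 tested S100 genes rose beside S100A6 and 1 fell, with a median log2 fold change of 1.97 against 0.01 for all tested genes. The lowest p belonged to S100A13 (2.69 ± 0.26, edgeR adjusted p = 9.40e-07), S100A16 (3.29 ± 0.47, edgeR adjusted p = 5.07e-05) and S100A10 (3.63 ± 0.54, edgeR adjusted p = 7.97e-05). S100A10 averaged 2.58 CPM with both drugs for 72 h and 0.204 CPM with DMSO. It passed the filter on low counts through groups where it is higher than with DMSO, so its rise in this count is no support. Of 9 tested S100 partners 4 rose and none fell, among them the annexins ANXA4 (1.57 ± 0.16, edgeR adjusted p = 2.21e-06), ANXA2 (1.04 ± 0.11, edgeR adjusted p = 2.83e-06) and ANXA5 (1.04 ± 0.12, edgeR adjusted p = 5.02e-06). Of 3 tested EHD genes, EHD2 (1.12 ± 0.10, edgeR adjusted p = 7.76e-07) and EHD1 (0.77 ± 0.11, edgeR adjusted p = 6.18e-05) rose while EHD3 was not called. Of 4 tested Ikaros genes 3 fell, led by IKZF1 (-0.68 ± 0.14, edgeR adjusted p = 0.00109). Of the 13 tested neighbours 2 rose and 3 fell with both drugs for 72 h. S100A4, near S100A6, rose (1.91 ± 0.53, edgeR adjusted p = 0.0104), though not once combination replicate 2 (0.0567) or DMSO replicate 2 (0.0603) was left out. PNPT1 (-0.52 ± 0.13, edgeR adjusted p = 0.00406) and VRK2 (-0.49 ± 0.11, edgeR adjusted p = 0.00219), neighbours of EFEMP1 by gene order, fell. The PNPT1 call was lost without combination replicate 1 (0.0708). Among the 12 erythroid identity genes of K562, 6 rose and 5 fell.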

How the data were processed

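The 20 libraries, 2 per group, are biological replicates per the labels. The authors deposited gene counts from STAR 2.7.3a for the drug arm and kallisto 0.44.0 transcript tables with estimated counts and TPM for the excision arm, on hg19 after Trimmomatic 0.38, per the submitters' processing notes. The annotation release is not given in the sources used here. Library totals were 22925617 to 38177320 counts for drug libraries and 55913728 to 98507880 estimated counts for excision libraries. Drug arm counts were taken from the reverse strand column, which held 8.01 to 9.77 times the forward column. Rows that name no gene held 34.0% to 50.7% of reads there and were left out. This share differed by group. It was 50.7% and 49.9% with both drugs for 72 h, 42.5% and 40.1% with DMSO, and 34.0% to 37.2% at 8 h and 24 h. Of 215170 transcripts 182238 (84.7%) matched GENCODE 29, which gave names and gene order, and the rest, 9.6% to 12.2% of estimated counts, were left out. Transcript values were added up per gene, and the sums rounded.

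Each arm was fitted alone with edgeR 4.0.16 in R 4.3.3 (filterByExpr, TMM, robust quasi-likelihood test), all groups sharing the spread, with Benjamini-Hochberg adjustment over all tested genes and a threshold of 0.05. The biological coefficient of variation was 0.129 for drug and 0.323 for excision libraries, with 6 and 4 residual degrees of freedom. With 2 libraries against 2 the smallest exact permutation p is 0.333, so each p rests on this model. Standard errors are the log2 fold change over the root of the F statistic and approximate. The code was tested on simulated data: for GSK343 against DMSO (19224 genes) 48 of 100 simulated 2-fold changes and 85 of 100 simulated 4-fold changes were called, and for DKO against EV (21286 genes) 1 and 36. Also called were 14 genes simulated without a change for GSK343 and 8 for DKO. In both that was a larger share of all calls than the threshold of 0.05. Other settings tried were a replicate block, RLE factors, DESeq2 1.42.0, a fit without the low-count filter, a fit limited to the groups compared, leaving out each library, counts from both strands or scaled from TPM and length, and, added after seeing the data, removal of the GC trend. The 6 genes and all gene lists were chosen with earlier results of these data known. Named are all 6 genes, the 2 nearest protein-coding genes on each side, the 2 most alike genes, and at most 3 called genes per list and comparison with the lowest p. Promoter windows are from RefSeq (GRCh38.p14). Coordinates of the files' own build were not used. One result of a gene list is not reported here.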

Additional observations from a re-analysis of the deposited data

How the results depend on the processing

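The DKO comparison gave 1866 calls; DESeq2 gave 3388 and leaving out 1 library 527 (without DKO replicate 1) to 1331, with 529 without DKO replicate 2 and 924 without EV replicate 2. S1KO gave 782, DESeq2 1814, only the groups compared 300 and leave-outs 249 (without S1KO replicate 2) to 447, so each of the 4 libraries moved the count. S2KO gave 427, DESeq2 1140, only the groups compared in edgeR 0 (1347 at an unadjusted p under 0.05) and leave-outs 157 (without EV replicate 1) to 329, with 169 without EV replicate 2 and 226 without S2KO replicate 2. GSK343 gave 2390, only the groups compared 1118 and leave-outs 739 (without GSK343 replicate 2) to 4287 (without DMSO replicate 1), and X5050 gave 2415, only the groups compared 617 and leave-outs 815 (without X5050 replicate 1) to 3121. Both drugs against X5050 alone gave 5816, with leave-outs of 3597 (without combination replicate 1) to 4907. With the replicate number as a block, DKO gave 3172, S1KO 1348 and S2KO 716 calls, and the drug comparisons stayed within 1.5 times of their counts. Deviations of same-numbered libraries correlated at -0.08 (DKO and EV), 0.49 (S1KO and EV) and 0.62 (S2KO and EV), and with 2 numbers and no label that ties them, whether the numbers pair libraries cannot be decided.

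Of 369 called results of list genes, neighbours and, in the drug arm, the 6 genes, 170 lost the call under at least 1 alternative. Of the 369, 2 turned direction, neither named here. Among the 6 genes only changes that were not called turned direction, and the cause was not tested. EFEMP1 with both drugs against X5050 was 0.01, but -0.05 in DESeq2, with RLE factors and with only the groups compared, -0.07 with no filter, and -0.28 to 0.17 in leave-outs. EHD3 with both drugs at 72 h was 0.08, but -0.01 with the GC trend removed and -0.24 to 0.45 in leave-outs. IKZF3 at 8 h was 0.03, but -0.07 with the GC trend removed and -0.03 to 0.11 in leave-outs. Leave-outs also gave -0.02 to 0.60 for EFEMP1 and -0.04 to 0.27 for S100A6 with GSK343, -0.67 to 0.10 for EHD3 with X5050, -0.05 to 0.71 for EHD3 with both drugs against X5050, -4.63 to 0.17 for GJA1 with both drugs at 72 h and -1.80 to 1.34 for GJA1 at 8 h. EFEMP1 at 24 h passed the threshold with the GC trend removed (adjusted p = 0.0323 in edgeR) and without DMSO replicate 1 (0.0383). In simulated DKO libraries, with 100 genes changed 2-fold and 100 changed 4-fold, 36 of the 4-fold changes were called. Far fewer genes changed there than the 1866 called in the real comparison, so the share found in the real fit may differ. The excision arm may still leave many smaller changes of neighbours and families unseen.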

Other observations

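The control cells of the 2 arms, both K562, differed in these genes. The tables were counted and normalized separately, so the levels stand side by side with no test. EFEMP1 had 0.0506 and 0.0717 CPM in the EV libraries and 0.991 and 1.44 CPM in the DMSO libraries. EHD3 had no count in the EV libraries and 0.909 and 0.560 CPM in the DMSO libraries. IKZF3 had 0.0379 and 0.0119 CPM in the EV libraries and 1.53 and 1.56 CPM in the DMSO libraries. S100A6 had 13.5 and 5.31 CPM in the EV libraries and 1.69 and 1.84 CPM in the DMSO libraries. For these 4 genes the DMSO level lay between the EV and the DKO level. What sets these gaps was not tested.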
